A study of Mus musculus with 12 samples.

Results

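Wt1, Foxc2, Lmx1b, Tcf21, Pax8, Pax2, Sox8 and Sox9 are transcription factor genes of the podocyte and nephron lineages, and their transcripts were followed in cultured mouse podocytes that received a Sparc plasmid. These 8 genes were taken by symbol from the 55487 Ensembl genes of a read count table, where each symbol matched 1 row. The cells were MPC5, a conditionally immortalized mouse podocyte line grown in serum-supplemented DMEM. The vector group (6 libraries, genotype label WT) received an empty plasmid, and the SPARCoe group (6 libraries, genotype label Sparc overexpression) received a plasmid for Sparc, a collagen-binding matricellular protein. All 12 libraries were made 24 hours after transfection from poly(A)-selected RNA of this 1 cell line. The labels name no separate cultures, so p-values speak only to how far single libraries differ, and that spread may be technical.

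Podocytes wrap the glomerular capillaries and arise from the same nephron progenitors as the tubule and the parietal epithelium of Bowman's capsule. PAX2 and PAX8 are paired-domain factors that act together to set up the nephric lineage. PAX2 normally declines as podocytes mature and persists in parietal epithelium. WT1 (a zinc finger protein), LMX1B (a LIM-homeodomain protein), FOXC2 (a forkhead protein) and TCF21 (a basic helix-loop-helix protein) are the factors that mature podocytes rely on, and WT1 activates the nephrin gene Nphs1. SOX8 and SOX9 are HMG-box proteins of the SoxE subgroup. They overlap in function in the branching ureteric bud, and SOX9 returns in injured tubule cells.

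Pax8 and Pax2 were abundant and Wt1, Lmx1b and Tcf21 scarce or at 0, with Foxc2, Sox8 and Sox9 in between. In SPARCoe, Pax8 and Pax2 were each lower by under 20%, Sox8 was 2.23-fold lower, Sox9 was 1.55-fold higher, and Lmx1b went from 7 to 108 counts in all. Foxc2 and Wt1 did not pass their tests, and Tcf21 had no count in any library. Of the 8 genes, 5 had enough counts for the model across all genes, and 4 of these 5 passed (edgeR adjusted p under 0.05). The same rule called 29.1% of all 15734 tested genes, 14.9% upward and 14.1% downward. With so few members, and with members chosen while results of these data were known, the count of calls is a description.

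The libraries held 33051035 to 47296258 counts in vector and 34927871 to 47380987 in SPARCoe. Sparc itself checked the labels: in read counts relative to library size (CPM, TMM-scaled) vector stood at 751 ± 11.2 and SPARCoe at 10119.7 ± 260 (SD, n = 6). The podocyte label was checked against 12 marker genes. Nphs1 and the phosphatase gene Ptpro were at 0 in all vector libraries. The cytoskeletal and junction genes Synpo, Cd2ap and Kirrel were present at 66.6, 326 and 400 CPM in vector. Markers that define mature podocytes, Nphs1 and Ptpro, were thus not detected in vector, while more widely expressed ones were abundant.

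Sequence just upstream of the start sites is shown for Pax8 and Pax2, which fell together, for Sox8, which fell most, and for Lmx1b, which rose from near silence. Each line holds the 250 bases before a RefSeq start site in GRCm38.p6, 5′ to 3′ on the gene's strand. Capitals mark the GC box GGGCGG or its reverse complement CCGCCC.
Pax8 (chr2:24475600-24475849, minus strand): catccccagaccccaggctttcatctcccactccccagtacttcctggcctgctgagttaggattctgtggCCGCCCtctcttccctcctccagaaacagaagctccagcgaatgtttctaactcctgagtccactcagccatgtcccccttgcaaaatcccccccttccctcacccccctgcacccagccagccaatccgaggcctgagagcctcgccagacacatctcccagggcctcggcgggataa
Pax2 (chr19:44755502-44755751, plus strand): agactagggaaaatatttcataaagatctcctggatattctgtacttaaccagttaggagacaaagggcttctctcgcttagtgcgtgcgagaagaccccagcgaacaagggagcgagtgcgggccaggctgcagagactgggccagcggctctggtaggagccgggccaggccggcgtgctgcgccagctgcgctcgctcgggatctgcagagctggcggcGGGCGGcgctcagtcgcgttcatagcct
Sox8 (chr17:25570687-25570936, minus strand): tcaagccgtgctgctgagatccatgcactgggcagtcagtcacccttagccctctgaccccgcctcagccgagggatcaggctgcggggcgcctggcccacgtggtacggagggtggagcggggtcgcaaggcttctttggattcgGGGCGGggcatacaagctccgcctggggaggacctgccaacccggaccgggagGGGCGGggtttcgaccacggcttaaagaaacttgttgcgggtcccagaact
Lmx1b (chr2:33641099-33641348, minus strand): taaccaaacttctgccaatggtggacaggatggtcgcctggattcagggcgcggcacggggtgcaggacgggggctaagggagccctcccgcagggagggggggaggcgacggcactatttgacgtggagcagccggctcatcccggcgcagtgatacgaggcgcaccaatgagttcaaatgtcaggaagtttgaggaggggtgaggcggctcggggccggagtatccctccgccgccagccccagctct
The RefSeq start equals the GENCODE M21 gene start for Pax8 and Sox8, and lies 293 bases from it for Pax2 and 587 bases from it for Lmx1b. For Pax2 and Lmx1b the bases just after the RefSeq start were not found in any GENCODE M21 transcript of the gene. Pax2 had 3 RefSeq windows, and the nearest to the GENCODE start is shown. A GC box was found once in Pax8 and in Pax2, 2 times in Sox8 and not in Lmx1b, and 32.7% of 32851 RefSeq windows of this length hold one on either strand. CCAAT, read on both strands, was found once in Pax8 and 2 times in Lmx1b, against 33.8% of windows with at least 1. None of the 4 windows held TATAAA (12.4% of windows), TGANTCA (6.75%) or AACAAT (9.42%) on either strand. Pax2, Sox8 and Lmx1b carried 20, 18 and 19 CG dinucleotides and Pax8 carried 6, the median of all windows being 6. The Pax8 and Pax2 windows therefore differed in CG content. The part of these sequences in the changes of the transcripts was not tested.

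Pax8, on chromosome 2 (24420560 to 24475599, minus strand, GRCm38, GENCODE M21), was the most abundant member by read count. Its level ran from 149 to 162 CPM in the vector libraries, with a median of 156, and from 125 to 130 CPM in SPARCoe, with a median of 128. Every SPARCoe library lay below every vector library. The fall was 17.9%, a log2 fold change of -0.28 ± 0.02 (SE; adjusted p = 1.75e-13 by edgeR). In bulk RNA, fewer cells with a transcript and less of it per cell cannot be told apart, here and for each gene that follows. The non-coding gene Gm13415 shares 367 exonic bases with Pax8 on the opposite strand and had 273 and 311 counts in all, beside 37993 and 32388 for Pax8.

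Pax2, on chromosome 19 (44756045 to 44837871, plus strand), also fell. Single vector libraries lay between 134 and 149 CPM around a median of 143, and SPARCoe libraries between 112 and 122 CPM around a median of 118. The groups did not overlap. Pax2 fell by 17% (log2 fold change -0.27 ± 0.03, SE, adjusted p = 1.09e-10 by edgeR). The ratio of Pax8 to Pax2 counts within a library does not depend on the scaling of libraries. On the log2 scale it was 0.14 ± 0.06 in vector and 0.13 ± 0.05 in SPARCoe (SD, n = 6), and the difference of -0.01 did not pass (exact two-sided permutation p = 0.695).

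Downward calls were common among abundant genes: 30.2% of the 2503 tested genes with a mean of at least 100 CPM passed downward and 15.9% upward. Across all tested genes, 5.35% had a lower log2 fold change than Pax8 and 5.96% a lower one than Pax2. Markers of other nephron epithelia that passed were mostly lower, while some scarce markers had more counts in SPARCoe. Of 11 parietal epithelium markers 7 were tested, and 5 fell and 0 rose, 2 of the 5 being Pax8 and Pax2 themselves. The summed level of the 11 was 866 to 954 CPM in vector and 784 to 834 CPM in SPARCoe. All 3 tested proximal tubule markers fell, with summed levels of all 11 of 329 to 345 CPM and 229 to 246 CPM. That sum was mostly the endocytic receptor gene Lrp2, while Slc22a6, Slc22a8, Hnf4a, Fbp1 and Miox were at 0 in vector. Scarce markers of the same list had more counts in SPARCoe, such as the phosphate transporter gene Slc34a1 with 2 and 74 and Ggt1 with 4 and 28. Of 13 distal tubule and collecting duct markers 4 were tested, and 1 rose and 1 fell. The riser, the salt transporter gene Slc12a3, had 13 counts in vector and 111 in SPARCoe. Summed levels of the 13 markers overlapped, at 137 to 162 CPM in vector and 118 to 143 CPM in SPARCoe. Such falls were not limited to nephron epithelia. Of 8 tested mesangium and stroma markers 4 fell and 0 rose, and of 6 tested endothelium markers 2 fell and 1 rose. Podocyte markers (7 tested) had 2 rises and 2 falls, and leukocyte markers (3 tested) 1 of each. Of 2 tested neural crest and cartilage markers 1 rose and 0 fell. Over all tested genes 14.1% fell and 14.9% rose. The part of these markers in the falls of Pax8 and Pax2 was not tested.

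**Figure D1:**
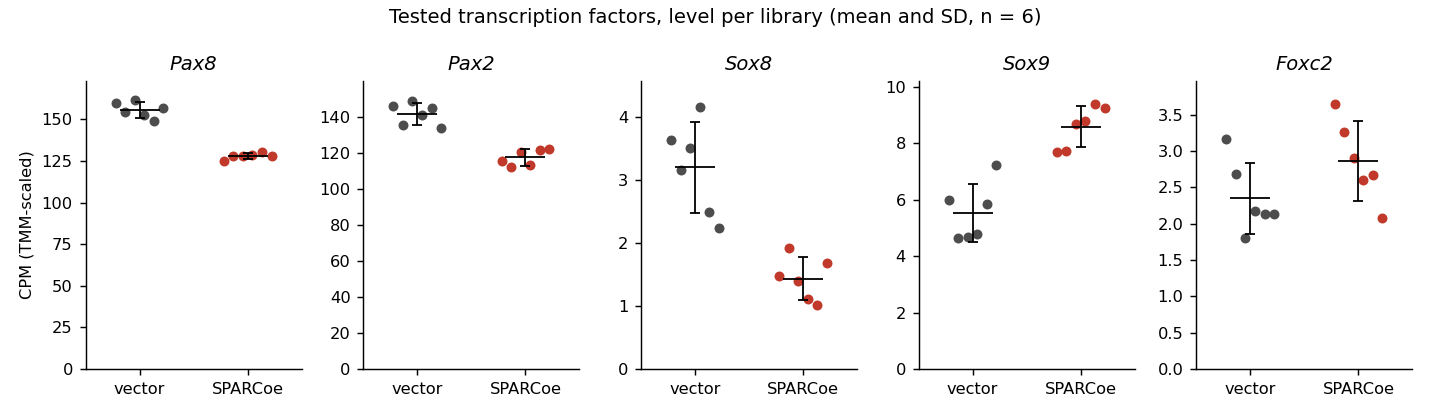
Level of each tested transcription factor in every library, in CPM from 0 on a separate axis per gene, with bars for the mean and SD of 6 libraries. Pax8, Pax2 and Sox8 libraries of SPARCoe all lie below vector, Sox9 libraries all lie above, and Foxc2 libraries overlap.

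The SoxE genes moved in opposite directions. Sox8, on chromosome 17 (25565892 to 25570686, minus strand), ran from 104 to 152 counts per vector library and from 45 to 69 per SPARCoe library. In CPM the vector libraries spanned 2.24 to 4.16 with a median of 3.34, and the SPARCoe libraries 1.02 to 1.92 with a median of 1.43. The groups did not overlap, although the vector libraries varied widely among themselves. The log2 fold change was -1.16 ± 0.16 (SE; adjusted p = 1.47e-07 by edgeR), and only 0.0636% of tested genes had a lower one. The antisense gene 2810468N07Rik shares 329 exonic bases with Sox8. It had 331 counts in vector and 310 in SPARCoe and did not pass (log2 fold change -0.17 ± 0.19, SE, adjusted p = 0.565 by edgeR). The strand setting of the counting is not given in the sources used here, so reads of the shared bases cannot be assigned to either gene.

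Sox9, on chromosome 11 (112782224 to 112787760, plus strand), had no overlapping gene in the annotation. Its libraries ran from 4.66 to 7.24 CPM in vector, with a median of 5.33, and from 7.68 to 9.39 CPM in SPARCoe, with a median of 8.74. All SPARCoe libraries were above all vector libraries, the closest pair being vector replicate 6 and the lowest SPARCoe library. Sox9 rose with a log2 fold change of 0.63 ± 0.09 (SE; adjusted p = 6.9e-07 by edgeR), and 94% of tested genes had a lower one. Over the 5 tested members, the groups did not overlap in 4, against 15.6% of all tested genes. By direction, this was 1 member upward, against 8.57% of tested genes, and 3 downward, against 7.04%.

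Within a library, Sox9 had 1.15 to 3.23 times the counts of Sox8 in vector and 4.01 to 9.12 times in SPARCoe. The mean log2 ratio was 0.80 ± 0.56 in vector and 2.60 ± 0.43 in SPARCoe (SD, n = 6). It differed by 1.80, a 3.49-fold change of the ratio (exact two-sided permutation p = 0.00216, the smallest value that 6 against 6 libraries allow). Sox9 was higher and Sox8 lower in every SPARCoe library than in any vector library. The ratios therefore had to separate, and this p-value adds nothing to the 2 calls above. Vector replicates 5 and 6 had the highest ratios of their group and the fewest Sox8 counts, and they still lay below every SPARCoe library. The remaining SoxE gene, Sox10, had 1 count in vector and 2 in SPARCoe, so nearly all SoxE counts came from Sox8 and Sox9.

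**Figure D2:**
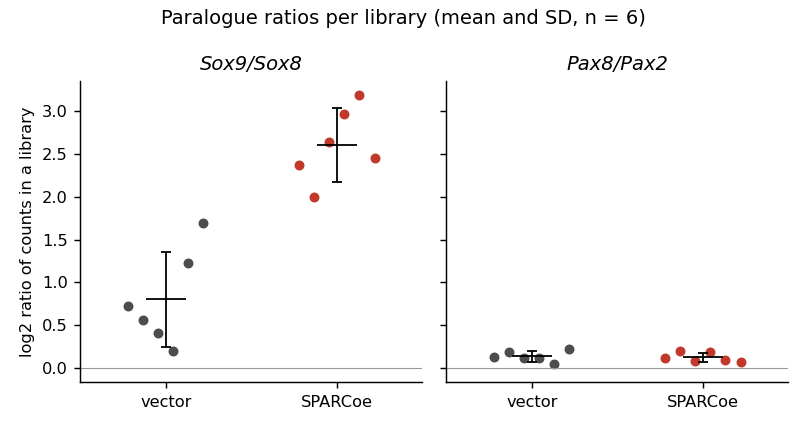
Log2 ratio of read counts of paralogous genes in every library (points), with the mean and SD of 6 libraries. The Sox9 to Sox8 ratio is 0.20 to 1.69 in vector and 2.00 to 3.19 in SPARCoe, while the Pax8 to Pax2 ratio is 0.05 to 0.23 in vector and 0.07 to 0.20 in SPARCoe.

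Foxc2, on chromosome 8 (121116171 to 121118895, plus strand, 1 exon), was present at a low level. Its counts ran from 72 to 124 per vector library and from 85 to 153 per SPARCoe library. In CPM this was 1.80 to 3.17 (median 2.15) in vector and 2.08 to 3.65 (median 2.79) in SPARCoe, and the groups overlapped. The log2 fold change was 0.29 ± 0.14 (SE), with a 95% interval of -0.003 to 0.58, so it missed the threshold (adjusted p = 0.138 by edgeR). When vector replicate 1, the highest of its group, was left out, Foxc2 passed with a log2 fold change of 0.39 (adjusted p = 0.0396 by edgeR). Its close relative Foxc1, which can stand in for Foxc2 in mouse development, fell from 12.9 ± 0.437 to 9.16 ± 0.636 CPM (SD of 6 libraries; adjusted p = 4.48e-08 by edgeR). Whether Foxc1 and Foxc2 differ in response was not tested.

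Lmx1b, on chromosome 2 (33560965 to 33640511, minus strand), was close to silent in vector. Vector replicates 1 to 6 had 0, 0, 6, 0, 0 and 1 counts, and SPARCoe replicates 1 to 6 had 17, 14, 27, 19, 23 and 8. Each SPARCoe library therefore exceeded each vector library, though the lowest SPARCoe library was only 2 counts above the highest vector one. The ratio of summed counts, scaled for library size, was 14.9, with an exact 95% counting interval of 6.97 to 37.8 (exact two-sided permutation p = 0.00216, unadjusted). An edgeR fit without a filter on low counts gave an adjusted p of 1.08e-09 over all 31742 genes with a count, of which it called 9.44% upward. The size of the ratio rests on vector replicate 3. Without that library 1 vector count remained and the ratio was 85.6, with an interval of 15 to 3.41e+03.

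Lmx1b missed the filter because 5 libraries, all of SPARCoe, reached the required level and 6 were needed. Among the 16008 genes that had a count and failed that filter, 65.7% had more counts in SPARCoe and 28.5% had fewer, so scarce genes as a whole leaned upward. Groups that did not overlap, as for Lmx1b, were found upward in 1.75% of them and downward in 0.0375%. The part of that general lean in the rise of Lmx1b was not tested. Its homologue Lmx1a had 2 and 4 counts in all. Ldb1, the adaptor that LIM-homeodomain proteins bind, was abundant and rose from 187 ± 6.1 to 203 ± 4.53 CPM (SD of 6 libraries; adjusted p = 6.41e-05 by edgeR).

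Wt1, on chromosome 2 (105126529 to 105173616, plus strand), was detected in every vector library but at a few reads. Vector replicates 1 to 6 had 12, 4, 4, 4, 8 and 5 counts, and SPARCoe replicates 1 to 6 had 4, 0, 4, 2, 4 and 6. The groups overlapped. The scaled ratio of SPARCoe to vector was 0.521, with an exact counting interval of 0.286 to 0.921 that leaves out the spread between libraries. Over libraries the difference did not pass (exact two-sided permutation p = 0.0714), and the edgeR fit without a filter gave an adjusted p of 0.321. Without SPARCoe replicate 6 it passed (exact permutation p = 0.00866), and without vector replicate 1 the ratio was 0.647 (exact permutation p = 0.143). Read pairs may add 2 counts at a time, since 56.67% of the counts of 1 or 2 in the table were 2, so these intervals are too narrow and cover counting error only.

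Tcf21, on chromosome 10 (22817281 to 22820174, minus strand), had 0 counts in all 12 libraries. At 3 counts, the limit that a count of 0 allows, a library's level would be 0.0633 to 0.0908 CPM. A level of Tcf21 below that could have gone unseen in any single library. Its antisense neighbour Gm10824 was also at 0.

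**Figure D3:**
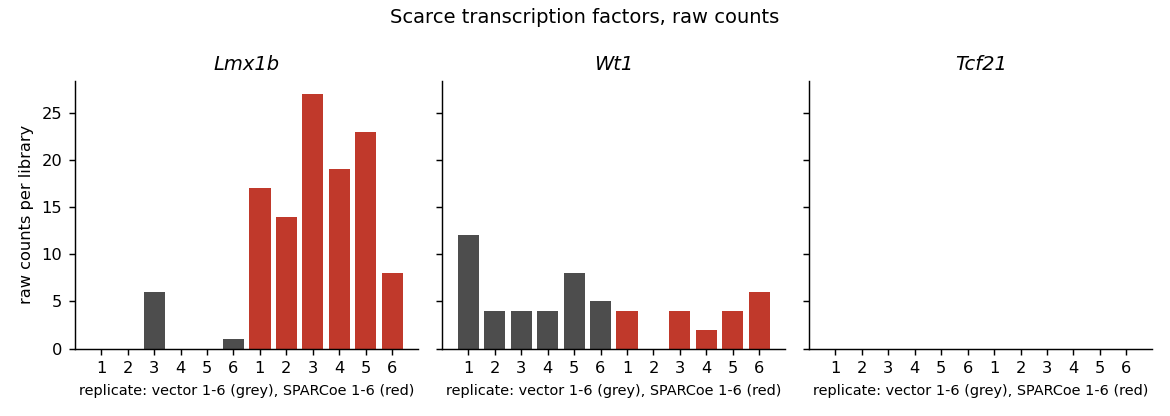
Raw counts of Lmx1b, Wt1 and Tcf21 in each library (bars; vector replicates 1 to 6 in grey, SPARCoe replicates 1 to 6 in red). Lmx1b has 7 counts in vector and 108 in SPARCoe, Wt1 has at most 12 reads in a library, and Tcf21 has none.

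Levels of different genes were compared per length, and the length mattered. By the authors' deposited FPKM (counts relative to library size and gene length), the vector order was Pax8 at 110 ± 3.29, Pax2 at 45.8 ± 2.04, Sox8 at 2.17 ± 0.499, Sox9 at 1.34 ± 0.244 and Foxc2 at 0.862 ± 0.182 (SD, n = 6). Wt1 at 0.0789 ± 0.0431 and Lmx1b at 0.0133 ± 0.0277 followed. In SPARCoe, Sox9 at 2.08 ± 0.174 came after the PAX pair, and Foxc2 (1.05 ± 0.202) and Sox8 (0.973 ± 0.233) lay within each other's spread. Lmx1b (0.21 ± 0.0634) then stood above Wt1 (0.0395 ± 0.0252).

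The lengths behind those FPKM values were 1414 bases for Pax8, 3089 for Pax2 and 1473 for Sox8, while the merged exons in GENCODE M21 cover 6061, 5409 and 3118 bases. For Sox9 and Foxc2 both lengths were equal. With merged exon lengths, Pax8 and Pax2 came out level in vector, at 25.7 ± 0.767 and 26.1 ± 1.17, and Sox8 at 1.03 ± 0.236 fell below Sox9 (SD, n = 6). In SPARCoe, Sox8 at 0.46 ± 0.11 was then also below Foxc2. The lead of Pax8 over Pax2 and, in vector, of Sox8 over Sox9 thus depended on the length used. The PAX pair stood more than 10 times above the other members on both scales, although the size of that gap changed with the length. The comparison of groups within a gene did not depend on it.

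**Figure D4:**
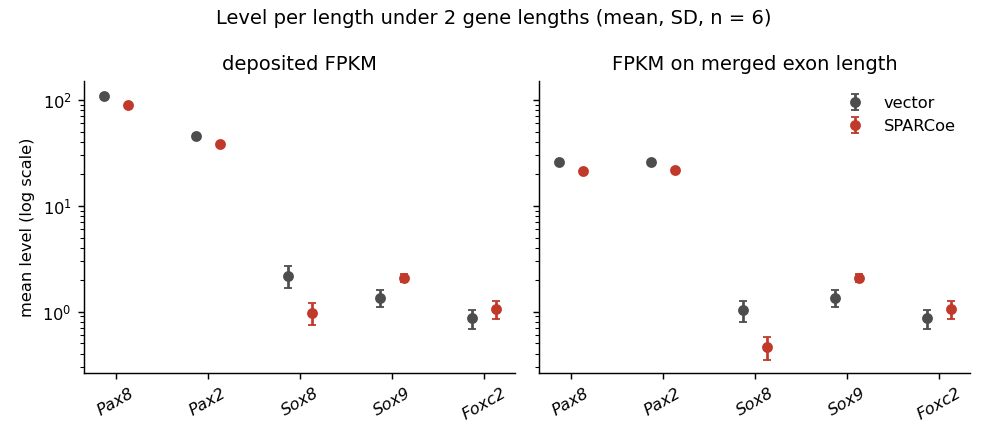
Mean level per length of the 5 tested members (points, with SD over 6 libraries, log axis) from the deposited FPKM values and from counts per kilobase of merged GENCODE M21 exons. The PAX genes lie more than 10 times above the other 3 on both scales, and the order of Pax8 and Pax2 and of Sox8 and Sox9 in vector changes between them.

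Relatives in the same families are given beside the 29.1% of all tested genes that passed. Of 9 PAX genes 4 were tested, and only Pax8 and Pax2 passed, both downward. Pax3, a neural crest and muscle factor, and Pax9 did not pass (log2 fold change 0.11 ± 0.08 and 0.15 ± 0.14, SE). Of 20 SOX genes 9 were tested, 2 rose and 1 fell, with a median log2 fold change of 0.00 beside -0.003 for all tested genes. Beside Sox9, the SoxD gene Sox13 rose from 0.375 ± 0.206 to 1.23 ± 0.296 CPM (SD of 6 libraries; adjusted p = 3.06e-06 by edgeR). The abundant SoxC genes Sox4, Sox11 and Sox12, at 118, 97.3 and 31.5 CPM in vector, did not pass. Of 18 LIM-homeodomain factors and cofactors 7 were tested, 2 rose and 1 fell: Ldb1 and Lhx6 rose, and Lhx2 fell from 9.84 ± 0.899 to 8.24 ± 0.597 CPM.

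Transcription factors of neighbouring lineages moved both ways, as did all tested genes, of which 14.9% rose and 14.1% fell. Among 20 podocyte factors, a list that also holds Wt1, Lmx1b, Foxc2 and Tcf21, 14 were tested, 4 rose and 5 fell, with a median of 0.11 (log2). Nr3c1, the glucocorticoid receptor, rose from 103 ± 3.92 to 120 ± 4.6 CPM, while Tead1, the DNA-binding partner of YAP, fell from 391 ± 7.54 to 351 ± 5.42 CPM (SD, n = 6). Creb3l2, a membrane-bound factor of the secretory pathway, fell by 0.36 on the log2 scale. For nephron progenitors, 15 of 25 factors were tested, 4 rose and 3 fell (median -0.14). Six4 rose from 5.86 ± 0.413 to 8.83 ± 1.03 CPM, Etv4 and Etv5, which act downstream of RET in the ureteric bud, rose by 0.12 and 0.21, and Hoxa10 fell by 0.18 (log2). The defining progenitor factor Six2 was at 0 in all libraries.

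Among 25 tubule factors 15 were tested, with 4 rises and 4 falls and a median of -0.04. These and the next counts stand beside 14.9% rises and 14.1% falls over all tested genes. The homeobox gene Cux1 fell by 0.32 and the epithelial factor Elf3 rose by 0.49 (log2). Tbx2, a T-box factor, rose 6.78-fold from 0.485 ± 0.141 to 3.28 ± 0.53 CPM (SD of 6 libraries; adjusted p = 8.1e-17 by edgeR). Of 14 stromal factors 10 were tested, 1 rose and 2 fell (median -0.03). Nr2f2 rose by 0.32 and Tbx18 fell by 0.31 (log2), and Hoxd9 fell by 0.36, a call that was lost without vector replicate 5 (adjusted p = 0.105 by edgeR) or SPARCoe replicate 1 (adjusted p = 0.0545 by edgeR). Cofactors of WT1 and PAX proteins had 1 rise (Tle4, by 0.45) and 1 fall (Tle2, by 0.26) among 11 tested. Tle2 no longer passed in 11 of 12 fits that left out 1 library.

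Genes that these factors are known to bind or drive did not follow 1 direction. Of 30 podocyte genes under WT1, LMX1B, FOXC or TCF21, 24 were tested, 11 fell and 4 rose, with a median of -0.13 (log2). Of all tested genes 14.1% fell and 14.9% rose. Among those with a mean of at least 100 CPM, 30.2% fell and 15.9% rose. Those that fell included Synpo, from 66.6 ± 2.79 to 46 ± 3.06 CPM, and the slit diaphragm gene Kirrel, from 400 ± 11.3 to 340 ± 5.97 CPM (SD, n = 6). Myh9, a non-muscle myosin heavy chain, and the intermediate filament gene Nes fell by 0.24 and 0.19 on the log2 scale. Nphs1, the target of WT1 that defines the slit diaphragm, failed the filter with 0 counts in vector and 53 in SPARCoe. Its counts were 3 to 14 per SPARCoe library.

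Targets of PAX2 and PAX8 also split: of 16 genes 10 were tested, 3 rose and 2 fell (median -0.10). Over all tested genes 14.9% rose and 14.1% fell. Wnt4, which drives nephron epithelialization, fell from 14 ± 1.02 to 11 ± 0.59 CPM, and the kidney cadherin gene Cdh16 from 141 ± 8 to 120 ± 9.35 CPM (SD of 6 libraries; adjusted p = 2.99e-05 and 0.00691 by edgeR). Gdnf, the ligand of RET, rose from 30.4 ± 1.41 to 42 ± 2.35 CPM, and Ret rose 5.06-fold from 0.266 ± 0.192 to 1.34 ± 0.344 CPM (SD of 6 libraries; adjusted p = 1.15e-12 and 1.22e-07 by edgeR). Gata3, another target, did not pass (log2 fold change -0.23 ± 0.11, SE, adjusted p = 0.116 by edgeR).

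For SOX9 and SOX8, 15 of 21 target genes were tested, 5 rose and 3 fell (median 0.12). The shares over all tested genes were 14.9% upward and 14.1% downward. Col2a1, the cartilage collagen gene that SOX9 activates, rose 8.32-fold from 0.524 ± 0.282 to 4.44 ± 0.534 CPM (SD of 6 libraries; adjusted p = 1.14e-09 by edgeR). The cartilage genes Acan and Col9a1 failed the filter, with 3 and 0 counts in vector and 24 and 2 in SPARCoe. Among other cartilage genes, Col9a3 rose by 0.40 (log2), Matn3, Comp and Col11a2 did not pass, and Hapln1 had 3 and 2 counts. Spry1, a feedback inhibitor of RET, Col18a1 and Amh fell by 0.22, 0.14 and 0.40 on the log2 scale. Markers of neural crest and cartilage, 8 in all, summed to 1.75 to 2.6 CPM in vector and 5.74 to 7.56 CPM in SPARCoe, chiefly through Col2a1. Sox10 was at 1 and 2 counts and Foxd3 at 0 in all libraries, and the part of such cells in the rise of Sox9 was not tested.

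**Figure D5:**
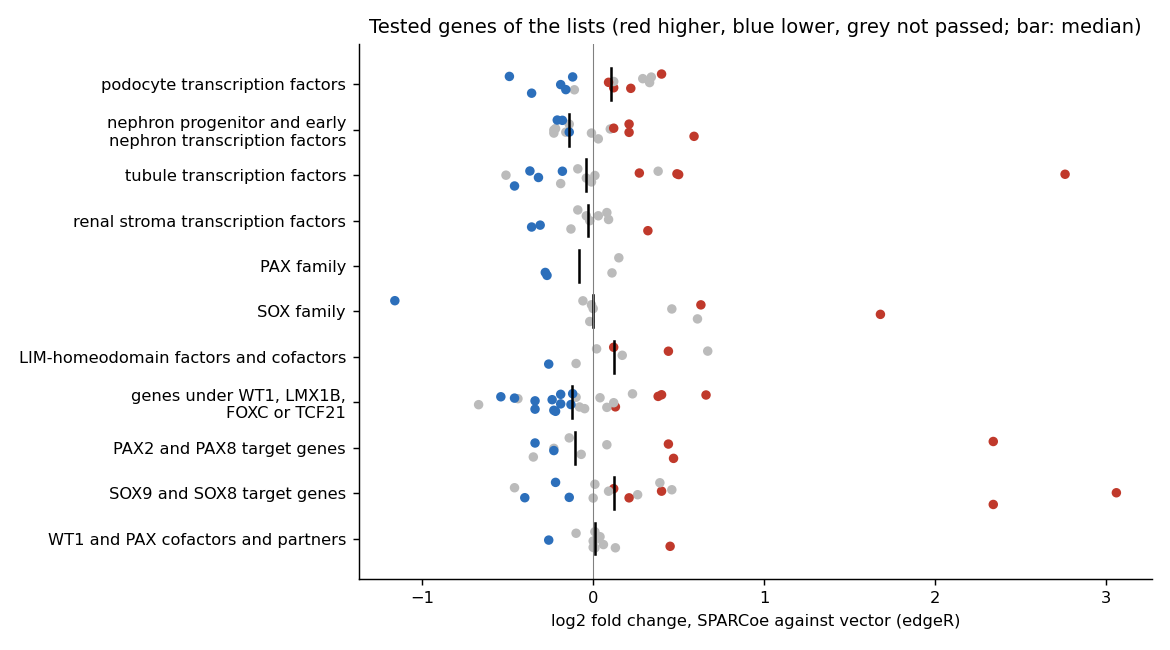
Log2 fold change of SPARCoe against vector (edgeR, x axis) for each tested gene of 11 lists around the 8 transcription factors. Red points rose, blue points fell, grey points did not pass, and the black bar is the list's median, which lies between -0.14 and 0.12 in every list.

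The genes closest in profile were found by the mean absolute distance of log2 CPM, centred on each gene's mean, over the 12 libraries and among 11344 other genes. Nearest to Pax8 were the atypical cadherin gene Fat1 and the chromatin gene Mta1, each at a distance of 0.02. Pax2 was followed by BC034090 and the polycystin gene Pkd1 at 0.03. For Sox8 they were Sema5a, a semaphorin, and Gprc5c, a receptor gene, at 0.23, and for Sox9 the complement regulator gene Cd55 at 0.09 and Ramp3 at 0.10. Part of each small distance is the difference between groups that these genes have in common, with log2 fold changes of -0.28 for Fat1, -0.25 for Pkd1, -1.26 for Sema5a and 0.68 for Cd55.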

How the data were processed

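The authors deposited read counts per Ensembl gene and FPKM values for the same 12 libraries. The submitters' processing notes name Bowtie2, HISAT2, featureCounts, SAMtools, Picard and edgeR. The genome build, annotation and strand setting are not stated there, so coordinates come from GENCODE M21 (GRCm38). Each deposited FPKM value equalled count over library total and 1 whole length per gene (within 0.001, 31742 genes). Symbols matched 55141 of 55487 IDs, and library totals ran from 33051035 to 47380987.

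Counts were tested with edgeR 4.0.16 in R 4.3.3: TMM factors, filterByExpr, a robust quasi-likelihood fit on all 12 libraries, two-sided, with Benjamini-Hochberg adjustment over 15734 genes. The SE of a log2 fold change is its size over the root of F. The 3 members that failed the filter and 2 paralogue ratios (0.5 added to each count) were examined by exact permutation over 924 assignments (scipy 1.17.1), 4 tests in all, since Tcf21 had no count. Ratios of summed counts carry exact (Clopper-Pearson) 95% intervals. The pipeline was tested on simulated data. Promoters were RefSeq's (GRCm38.p6), with 5 of 8 members matched and the window nearest the GENCODE start taken.

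Alternatives were RLE factors, DESeq2 1.42.0, no filter, a filter of 1 CPM in 6 libraries, Sparc left out, a replicate block, limma 3.58.1 on log2(FPKM + 1) or log2(FPKM + 0.1) for a mean of at least 1 FPKM, limma on all genes, and each library left out. For scarce members raw counts and FPKM replaced CPM. For ratios, the alternatives were a pseudocount of 1, and FPKM with 0.01 added. The 8 members and the lists were chosen with earlier results of these data known. Genes named were the members, up to 4 passing genes per list by smallest adjusted p, the 2 genes nearest each passing member (mean of at least 1 CPM), and Sparc. Other genes named, among them family relatives, markers, overlapping genes and scarce targets, were chosen after their values were seen. Results for some genes are not reported here.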

Additional observations from a re-analysis of the deposited data

Results flagged for a closer look

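In vector replicate 3, Lmx1b stood apart from the other vector libraries at 0.139 CPM (6 counts), a gap of 0.847 of the group's range, while 4 of the other libraries had no count. This exceeded Dixon's 95% critical value for 6 samples, which chance passes in about 1 of 20 groups of normally distributed values. Counts this close to 0 are not normally distributed, so that rate does not hold here. Both groups of each of the 8 genes were examined.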

How the results depend on the processing

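Pax8, Pax2, Sox8 and Sox9 kept their direction and stayed past the threshold under all 9 alternatives and in all 12 fits without 1 library. Log2 fold changes ranged from -0.29 to -0.276 for Pax8 and from -0.276 to -0.262 for Pax2 over the alternatives. With 1 added to FPKM, which compresses low genes, limma gave smaller sizes for Sox8 (down to -0.678) and Sox9 (down to 0.401). Leaving out 1 library gave log2 fold changes of 0.205 to 0.393 for Foxc2 (edgeR adjusted p 0.0396 to 0.352) and CPM differences of -0.0905 to -0.0459 for Wt1 (exact permutation p 0.00866 to 0.143). It also gave differences of the log2 Pax8 to Pax2 ratio of -0.032 to 0.005, positive only without vector replicate 6. Foxc2 could not be tested on FPKM genes with a mean of at least 1. The count of changed genes was 3712 to 5344 over the alternatives, against 4571.

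Same-numbered libraries of the groups did not deviate together (correlations of -0.011 to 0.015), so the numbers pair nothing. With the replicate block 4663 genes passed, no call of a tested member changed, and Tle2 lost its call. Of 890 further results for 43 other named genes, 873 stayed on the same side of the threshold, 17 lost their call (all for Hoxd9 or Tle2) and none changed sign. Depth limits Wt1, Lmx1b and Tcf21.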

Other observations

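Other scarce genes of the lists were also seen more often in SPARCoe. Among 50 list genes outside the 8 members that had a count and failed the filter, 42 had more counts in SPARCoe, 7 had fewer, and 7 had groups that did not overlap, all of them upward. Over all 16008 genes with a count that failed the filter, 65.7% had more counts in SPARCoe and 28.5% fewer, and the groups did not overlap upward in 1.75% and downward in 0.0375%. Lhx5, a LIM-homeodomain gene, had 4 counts in vector and 110 in SPARCoe. Uncx, a homeobox gene, had 2 and 83, and Pax5, the B cell relative of Pax2 and Pax8, had 2 and 80. The cartilage matrix gene Matn1 had 13 and 117 counts, the neural SOX gene Sox21 16 and 56, Nphs1 0 and 53, and Heyl, a Notch target, 0 and 31. These 7 genes were picked after their values were seen, and no test was made.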
